A study of Homo sapiens with 60 samples.

Results

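A549 cells that received an ethanol extract of licorice root (Glycyrrhizae Radix) at 500 µg/mL for 24 h were compared with A549 cells that received the same extract at 100 µg/mL for 24 h, the upper of the extract's 2 dose steps. The 6 libraries, 3 at each of these doses, were taken by their labels from the 60 libraries of the series. A549 is an attached-growing cell line from a human lung adenocarcinoma, and the series sequenced its messenger RNA after treatment with herbal extracts of tonic medicine or with vehicle. Licorice extract at 20 µg/mL (3 libraries) gave the lower 5-fold step of 100 against 20 µg/mL, which shares the 100 µg/mL libraries with the upper step. An ethanol extract of Ginseng at 500 and 100 µg/mL (3 libraries each), in the same set of sample codes, gave the same dose step for another herb. The vehicle level came from 3 libraries of cells given DMSO alone, whose sample codes form another set. The vehicle labels name 0.1% DMSO where the design text names 2%, and that text lowers the doses of toxic extracts by an IC20 rule while the labels keep 500, 100 and 20 µg/mL for licorice. Whether the 3 libraries of a dose were separate cultures is not stated. The p-values therefore cover the spread between libraries of the same group, estimated over all 60 libraries, and nothing wider.

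Licorice root is known for the saponin glycyrrhizin and for many flavonoids and other phenols. Planar aromatic compounds bind the aryl hydrocarbon receptor (AHR), a cytosolic transcription factor that then enters the nucleus, pairs with ARNT and switches on the enzymes that oxidise such compounds, with AHRR and TIPARP as its brakes. The integrated stress response is a separate route, in which kinases that sense amino acid shortage, heme shortage, viral RNA or unfolded protein slow translation and raise the transcription factor ATF4, whose targets make, import and charge amino acids onto tRNA. A549 cells carry an inactive KEAP1, so the antioxidant factor NRF2 is active in them without treatment, and they carry a deletion of CDKN2A.

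The 6 libraries held 22625356 to 27759279 counts, with 22813 to 23467 genes above 0, against 18602484 to 29764358 counts over all 60 libraries. Levels are given as CPM, counts scaled to the library's size with TMM factors. No pair of libraries of a dose agreed within sampling noise, and the chi-square per degree of freedom between them ran from 3.6 to 13.8 at 500 µg/mL and from 11 to 38.7 at 100 µg/mL, where replicate 2 stood farthest from the other two. CDKN2A had 0 counts in all 6 libraries, and the other 8 A549 markers were present. Of these, 6 were lower and 1 higher at 500 than at 100 µg/mL by the test described below, where 18% of all genes moved each way. Markers of other cells were at 0 counts in all 6 libraries for PTPRC, MS4A1 and CDH5. Levels at 500 against 100 µg/mL were summed over the markers with enough counts to be tested. The sums were 9.68 to 11.5 against 15.5 to 16.7 CPM for 6 fibroblast genes. They were 12.6 to 13.0 against 19.4 to 20.4 CPM for 2 endothelial genes. For 2 immune genes they were 65.0 to 79.1 against 19.2 to 30.4 CPM. Most of the immune sum was CD68, a lysosomal membrane protein, whose level was 75.8, 63.6 and 61.0 CPM at 500 µg/mL and 27.97, 17.4 and 23.0 CPM at 100 µg/mL. By the same test 1 fibroblast gene rose and 2 fell of 6 with enough counts, against 18% of all genes each way. Against the same share, 1 endothelial gene fell of 2, and both immune genes tested rose. These lists are too short to set apart from that share. The part of these markers in the results was not tested.

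The upper dose step moved the transcriptome broadly. Of 17765 genes tested, 6400 differed between 500 and 100 µg/mL (36% of genes tested) by edgeR's quasi-likelihood test at a Benjamini-Hochberg adjusted p under 0.05, the rule for every gene called or said to rise or fall here. Changes are on the log2 scale, with ± for the standard error. Among them 3202 rose (18%) and 3198 fell (18%), and the median log2 change over all genes tested was -0.000513. A change of 2-fold or more was reached by 454 genes that rose (2.56%) and by 292 that fell (1.64%). The lower step of 100 against 20 µg/mL called 140 genes (0.788%), of which 32 rose (0.18%), 108 fell (0.608%) and 7 reached 2-fold (0.0394%). The difference between the steps, tested directly as the log2 change of the upper step minus that of the lower, was called for 2852 genes (16.1%), with 1322 more positive at the upper step (7.44%) and 1530 more negative (8.61%). These counts depended on which libraries entered the fit. A fit of only the compared groups called 8 genes in the lower step and 1545 in the difference, and without the 100 µg/mL replicate 2 the counts were 76 and 1851. Without the 20 µg/mL replicate 3 the lower step called 67. Among the genes named below, the lower-step calls of CYP1A1, CYP1B1, ALDH3A1, LEFTY1 and PGC held under every alternative run, and the others were lost under at least 1, the fit of only the compared groups.

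**Figure D1:**
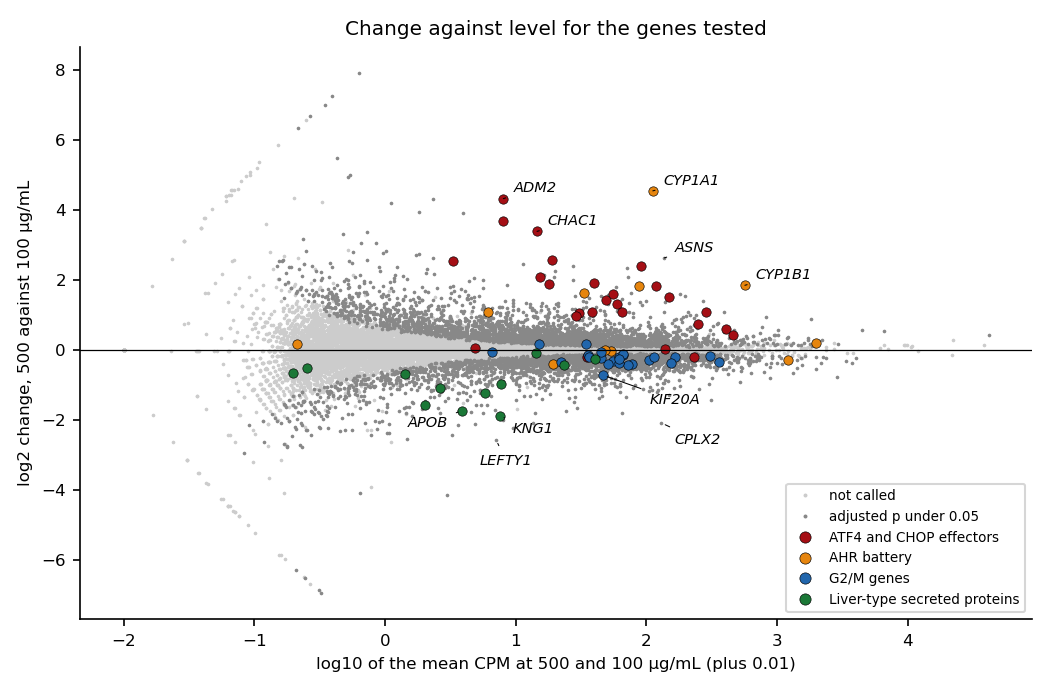
Log2 change of 500 against 100 µg/mL (y axis) against the log10 of the mean CPM over both doses plus 0.01 (x axis) for the genes tested, 1 point per gene. Dark grey points have an adjusted p under 0.05, and coloured points are 4 gene lists without FGF21, which had no counts at 100 µg/mL. The ATF4 and CHOP effectors lie mostly above 0, with ADM2 at 4.33, and the liver-type secreted proteins mostly below it, with KNG1 at -1.89.

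The aryl hydrocarbon receptor battery held the largest rise among genes with at least 5 CPM at either dose, and it moved at both dose steps. CYP1A1, a cytochrome P450 that oxidises polycyclic aromatic compounds (chromosome 15, 74719542 to 74725610 on GRCh38), had 209, 218 and 218 CPM at 500 µg/mL and 10.0, 9.53 and 7.89 CPM at 100 µg/mL. The groups did not overlap, and the 3 libraries at 500 µg/mL lay close together. The rise was 4.55 ± 0.11 on the log2 scale (23.5-fold; edgeR adjusted p = 4.93e-33). The lower step was nearly as large at 4.27 ± 0.21 (edgeR adjusted p = 8.75e-20), from a mean of 0.466 CPM at 20 µg/mL and 0.316 CPM in the vehicle, and the difference between the steps was 0.29 ± 0.36 (edgeR adjusted p = 0.667). The level of CYP1A1 therefore climbed over both steps, and these libraries did not separate the size of one step from the size of the other. The AHR pair binds DNA at a short core, GCGTG, and the promoter is printed to show where those letters lie. They were searched on both strands in windows of 300 bases, 250 before to 50 after the start, from RefSeq on GRCh38.p14. A match is a run of letters, and binding there was not tested. The window of CYP1A1 (chr15:74725479-74725778, minus strand, read 5′ to 3′ along the gene) holds the core once, 57 bases before the start, in capitals.
CYP1A1: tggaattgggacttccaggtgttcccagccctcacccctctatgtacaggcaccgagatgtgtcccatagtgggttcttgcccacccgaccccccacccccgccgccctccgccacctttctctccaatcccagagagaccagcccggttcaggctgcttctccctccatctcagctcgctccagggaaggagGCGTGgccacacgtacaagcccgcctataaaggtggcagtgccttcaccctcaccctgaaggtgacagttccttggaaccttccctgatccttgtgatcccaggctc
The core is common, present in 36.5% of 35116 promoter windows and in 6 of the 10 AHR battery members with a window. It stood in 75.0% of 16 tRNA synthetase windows, in 65.2% of 23 windows of ATF4 and CHOP effectors, in 5 of 10 of the synthesis list and in 6 of 12 of amino acid transporters.

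Of 11 battery genes tested, 6 rose and 2 fell at the upper step, against 18% of all genes each way, with a median of 0.20. At the lower step 5 rose, against 0.18% of all genes. CYP1B1, the related oxidising enzyme (chromosome 2, 38066973 to 38109902), had 889.9, 899 and 876 CPM at 500 µg/mL and 243, 257 and 238 CPM at 100 µg/mL, with no overlap. It rose by 1.85 ± 0.04 at the upper step, against 0.80 ± 0.04 at the lower, and the difference of 1.05 passed (edgeR adjusted p = 3.3e-16). TIPARP, an ADP-ribosyltransferase that restrains the receptor, had 136, 137 and 137 CPM at 500 µg/mL and 36.4, 39.4 and 38.5 CPM at 100 µg/mL, and its rise of 1.84 ± 0.05 exceeded the 0.35 ± 0.05 of the lower step by 1.49 (edgeR adjusted p = 3.49e-18). AHRR, the receptor's repressor, rose at both steps, by 1.10 ± 0.15 and 0.80 ± 0.18, and the steps did not differ by the test (0.30 ± 0.29, edgeR adjusted p = 0.56). CYP2S1, another P450 induced through the receptor, had 55.6, 48.6 and 45.5 CPM at 500 µg/mL and 19.3, 13.8 and 15.5 CPM at 100 µg/mL, a rise of 1.62 ± 0.12, against 0.11 ± 0.13 and no call at the lower step (edgeR adjusted p of the difference = 1.64e-06). The members thus formed a range, with CYP1A1 and AHRR graded over both steps and CYP2S1 and TIPARP steeper at the top.

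Other battery members moved less, or down. ALDH3A1, an aldehyde dehydrogenase, rose by 0.20 ± 0.04 at the upper step and by 0.63 ± 0.04 at the lower, and the difference of -0.44 passed (edgeR adjusted p = 8.45e-06). Its upper-step call was lost in a fit of only the compared groups (edgeR adjusted p = 0.0701). NQO1, a quinone reductase that AHR and NRF2 share, averaged 1088 ± 32.9 CPM at 500 µg/mL and 1325 ± 32.2 CPM at 100 µg/mL (SD, n = 3 each) and fell by 0.28 ± 0.05. UGT1A6, a glucuronidating enzyme, fell by 0.40 ± 0.08, where its counting can share reads with the other transcripts of the UGT1A locus. AHR itself had 52.7, 57.8 and 49.3 CPM at 500 µg/mL and 53.1, 57.8 and 51.5 CPM at 100 µg/mL, groups that overlapped, and did not pass (edgeR adjusted p = 0.793).

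**Figure D2:**
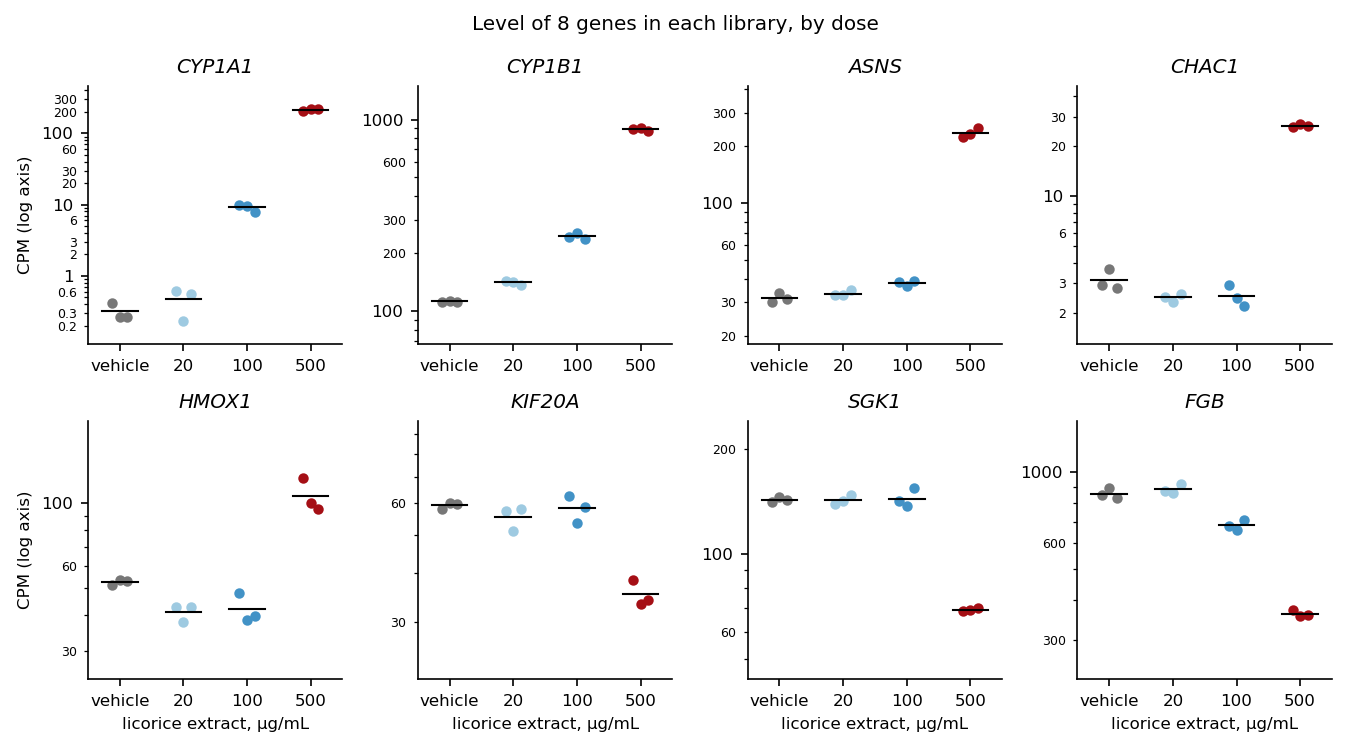
CPM on a log axis (y) in each library of the vehicle and of licorice extract at 20, 100 and 500 µg/mL (x) for 8 genes, with 1 point per library and a line at the mean of 3 libraries. CYP1A1 climbs at 100 and again at 500 µg/mL, ASNS and CHAC1 stand apart at 500 µg/mL, and SGK1 and KIF20A are lower at 500 µg/mL.

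The targets of ATF4 and of its partner CHOP rose at the upper step with little movement below it. Of 27 effectors tested, 23 rose and 1 fell, 19 of the rises being 2-fold or more (2.56% of all genes), with a median of 1.44. The lower step had 1 that rose (0.18% of all genes) and a median of 0.043. The difference between the steps was positive for 22 (7.44% of all genes) and negative for 1 (8.61%). ATF4 itself had 393, 383 and 389 CPM at 500 µg/mL and 196, 169.5 and 185 CPM at 100 µg/mL, about double and without overlap, a rise of 1.08 ± 0.05 (edgeR adjusted p = 2.64e-22). DDIT3, which encodes CHOP, had 24.7, 25.9 and 24.5 CPM at 500 µg/mL and 6.21, 5.83 and 5.57 CPM at 100 µg/mL and rose by 2.09 ± 0.09 (edgeR adjusted p = 2.15e-23). The 3 libraries at 100 µg/mL lay under the vehicle's mean of 7.28 CPM.

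CHAC1, an enzyme that degrades glutathione, had 26.3, 27.1 and 26.3 CPM at 500 µg/mL and 2.94, 2.44 and 2.20 CPM at 100 µg/mL, and rose by 3.39 ± 0.12 (edgeR adjusted p = 3.35e-27), against 0.03 ± 0.14 at the lower step. Every library at 500 µg/mL was far above every library at 100 µg/mL, and the vehicle averaged 3.15 CPM. ADM2, a peptide hormone of the adrenomedullin family, had 14.9, 16.4 and 14.6 CPM at 500 µg/mL and 0.952, 0.945 and 0.366 CPM at 100 µg/mL, the second largest rise among genes with at least 5 CPM at either dose at 4.33 ± 0.20 (edgeR adjusted p = 9.35e-23). NIBAN1, a stress-induced regulator of translation, had 12.9, 14.7 and 16.5 CPM at 500 µg/mL and 0.952, 1.46 and 0.976 CPM at 100 µg/mL, and rose by 3.70 ± 0.16 (edgeR adjusted p = 1.72e-23). Both were at or below 1.46 CPM in the 100 µg/mL libraries, so their folds rest on few counts there. STC2, a secreted glycoprotein, had 148, 158 and 151 CPM at 500 µg/mL and 30.0, 28.4 and 27.9 CPM at 100 µg/mL and rose by 2.40 ± 0.05 (edgeR adjusted p = 5.53e-35). TRIB3, a pseudokinase that feeds back on ATF4, had 191, 189 and 179 CPM at 500 µg/mL and 53.4, 55.0 and 48.0 CPM at 100 µg/mL and rose by 1.84 ± 0.06. VLDLR, a lipoprotein receptor, rose by 1.89 ± 0.06, and the transcription factor ATF3 by 2.54 ± 0.18. GDF15, a stress cytokine, had 33.5, 30.9 and 32.4 CPM at 500 µg/mL and 5.75, 5.43 and 4.96 CPM at 100 µg/mL and rose by 2.58 ± 0.10 (edgeR adjusted p = 1.24e-24). In each of these genes the groups did not overlap and the difference between the steps passed, with values from 1.70 for TRIB3 to 3.87 for ADM2. FGF21, a stress hormone, had 95 counts summed over the 500 µg/mL libraries and 0 over those at 100 µg/mL, at least 10.1-fold higher against a floor of 3 counts per library (0.123 CPM), and the list's median is the same with FGF21 at that bound.

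Members that did not follow were CTH, which makes cysteine from cystathionine (0.05 ± 0.13, edgeR adjusted p = 0.826), and the transcription factors CEBPB (0.02 ± 0.11, edgeR adjusted p = 0.913) and ATF5 (-0.19 ± 0.14, edgeR adjusted p = 0.305), none of which passed. TSC22D3, a glucocorticoid-induced leucine zipper protein, fell by 0.21 ± 0.04. CEBPB had 132, 154 and 135 CPM at 500 µg/mL and 145, 155 and 116 CPM at 100 µg/mL, and the groups overlapped.

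Enzymes that make asparagine, serine and one-carbon units rose together at the upper step. Of 15 tested, 13 rose and 2 fell, where 18% of all genes moved each way, with a median of 1.08. At the lower step 1 rose (0.18% of all genes) and 1 fell (0.608%), with a median of 0.054. With the replicate block ASNS, PHGDH and MTHFD1L also passed at the lower step (edgeR adjusted p = 0.0307, 0.0254 and 0.0423), where the fit without it gave changes of 0.19, 0.18 and 0.20. The difference between the steps passed for 11 of them in the positive direction and 2 in the negative. ASNS, which makes asparagine from aspartate (chromosome 7, 97852118 to 97872542), had 225, 234 and 250.3 CPM at 500 µg/mL and 38.5, 36.7 and 39.0 CPM at 100 µg/mL and rose by 2.63 ± 0.05 (6.21-fold; edgeR adjusted p = 6.65e-37). The lowest library at 500 µg/mL was more than 5-fold above the highest at 100 µg/mL, where the level was close to the 31.7 CPM of the vehicle. PHGDH, the first enzyme of serine synthesis, had 116, 118 and 119.6 CPM at 500 µg/mL and 27.0, 28.9 and 26.8 CPM at 100 µg/mL and rose by 2.10 ± 0.04 (edgeR adjusted p = 2.71e-35). PCK2, the mitochondrial phosphoenolpyruvate carboxykinase, rose by 2.35 ± 0.07 at the upper step and by 0.33 ± 0.08 at the lower, and the difference of 2.02 passed (edgeR adjusted p = 9.87e-17). ALDH1L2 and MTHFD2, mitochondrial enzymes of folate metabolism, rose by 1.64 ± 0.05 and 1.60 ± 0.05. PSAT1, the second serine enzyme, had 270.3, 293 and 322 CPM at 500 µg/mL and 86.6, 109 and 108 CPM at 100 µg/mL and rose by 1.54 ± 0.07. The pair that fell were cytosolic folate enzymes, MTHFD1, which fell by 0.36 ± 0.04, and SHMT1, which fell by 0.53 ± 0.04.

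Amino acid transporters and tRNA synthetases moved with them. Of 13 transporters tested, 9 rose and 1 fell, where 18% of all genes moved each way, with a median of 0.74. At the lower step 2 rose, against 0.18% of all genes, with a median of 0.027, and both calls were lost in a fit of only the compared groups. SLC6A9, a glycine carrier, had 28.6, 27.0 and 25.1 CPM at 500 µg/mL and 7.04, 6.30 and 4.92 CPM at 100 µg/mL and rose by 2.14 ± 0.09 (edgeR adjusted p = 2.38e-23). SLC1A4, a carrier of neutral amino acids, rose by 2.08 ± 0.09, SLC7A1, a carrier of arginine and lysine, by 1.28 ± 0.05, and SLC38A1, a glutamine carrier, by 0.67 ± 0.04. SLC7A11, the cystine importer, had 303, 329 and 326 CPM at 500 µg/mL and 143, 176 and 161 CPM at 100 µg/mL, and rose at both steps, by 1.00 ± 0.06 and 0.25 ± 0.06, more at the upper (difference 0.75, edgeR adjusted p = 1.98e-06). SLC38A2, another glutamine carrier and a known ATF4 target, did not pass (-0.0042 ± 0.05, edgeR adjusted p = 0.965), and SLC7A6 fell by 0.30 ± 0.05.

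Cytosolic aminoacyl-tRNA synthetases join each amino acid to its tRNA. Of 20, 12 rose and 2 fell at the upper step, against 18% of all genes each way, with a median of 0.53. None was called at the lower step, and the difference between the steps was positive for 12. GARS1, for glycine, had 398, 389 and 392 CPM at 500 µg/mL and 154, 143 and 147 CPM at 100 µg/mL and rose by 1.41 ± 0.04 (edgeR adjusted p = 6.75e-29). AARS1, for alanine, had 521, 526 and 549.7 CPM at 500 µg/mL and 242, 256 and 255 CPM at 100 µg/mL and rose by 1.08 ± 0.04. YARS1, for tyrosine, and CARS1, for cysteine, rose by 0.88 ± 0.04 and 1.05 ± 0.05. The synthetases for glutamine (QARS1) and histidine (HARS1) fell by 0.16 ± 0.04 and 0.15 ± 0.04, and FARSA, FARSB, KARS1, VARS1 and RARS1 were among the 6 that did not pass. With the replicate block, FARSA and FARSB passed as well (edgeR adjusted p = 0.0258 and 0.031), so that 14 rose, and so did the difference between the steps for RARS1 (edgeR adjusted p = 0.0335). The call of HARS1 was lost under other settings.

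ATF4 binds with C/EBP proteins at a composite element, and its core TGATGNAA (N for any base) was searched on both strands of the same promoter windows. The windows of the 4 members of the ATF4 and synthesis lists with the largest rises at 5 CPM or more are printed to show where the core lies, in capitals. ADM2 (chr22:50481293-50481592, plus strand) and NIBAN1 (chr1:184974459-184974758, minus strand) hold no match in these letters. CHAC1 (chr15:40953221-40953520, plus strand) holds it on the minus strand, 209 bases before the start, and ASNS (chr7:97872359-97872658, minus strand) along the gene, 68 bases before the start.
ADM2: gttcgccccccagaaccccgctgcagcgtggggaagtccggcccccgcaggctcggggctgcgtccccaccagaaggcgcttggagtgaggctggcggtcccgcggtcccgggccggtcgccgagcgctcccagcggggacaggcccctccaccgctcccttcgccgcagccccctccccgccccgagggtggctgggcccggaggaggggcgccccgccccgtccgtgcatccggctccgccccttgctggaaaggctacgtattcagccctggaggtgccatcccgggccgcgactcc
NIBAN1: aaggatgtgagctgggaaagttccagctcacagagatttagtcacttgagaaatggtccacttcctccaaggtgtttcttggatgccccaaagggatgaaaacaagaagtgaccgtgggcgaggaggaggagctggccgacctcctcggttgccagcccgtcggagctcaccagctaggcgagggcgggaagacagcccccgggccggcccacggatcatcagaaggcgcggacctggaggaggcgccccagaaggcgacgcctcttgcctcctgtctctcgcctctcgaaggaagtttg
CHAC1: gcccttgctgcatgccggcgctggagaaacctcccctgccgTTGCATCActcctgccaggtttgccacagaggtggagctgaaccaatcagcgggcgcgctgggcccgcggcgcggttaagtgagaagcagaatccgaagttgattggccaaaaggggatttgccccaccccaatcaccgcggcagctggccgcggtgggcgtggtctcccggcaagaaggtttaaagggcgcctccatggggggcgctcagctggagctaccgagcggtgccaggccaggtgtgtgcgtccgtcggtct
ASNS: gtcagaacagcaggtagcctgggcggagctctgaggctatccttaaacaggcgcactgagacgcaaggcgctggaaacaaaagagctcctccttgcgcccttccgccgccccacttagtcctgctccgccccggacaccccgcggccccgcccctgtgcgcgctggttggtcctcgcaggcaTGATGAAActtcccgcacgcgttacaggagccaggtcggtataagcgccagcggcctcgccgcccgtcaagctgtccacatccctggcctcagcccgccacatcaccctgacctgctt
The core stood in 1270 of 35116 promoter windows (3.6%). It stood in 6 of 16 synthetase windows (AARS1, CARS1, IARS1, MARS1, NARS1 and TARS1, all of which rose), in 3 of 12 transporter windows (SLC38A1, SLC3A2 and SLC7A1), in 3 of 10 synthesis windows (ASNS, GOT1 and MTHFD1L), in 4 of 23 windows of the ATF4 and CHOP effectors (ATF3, CHAC1, FGF21 and SLC3A2) and in 0 of 10 windows of the AHR battery. A match is a run of letters and was not tested as a site.

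**Figure D3:**
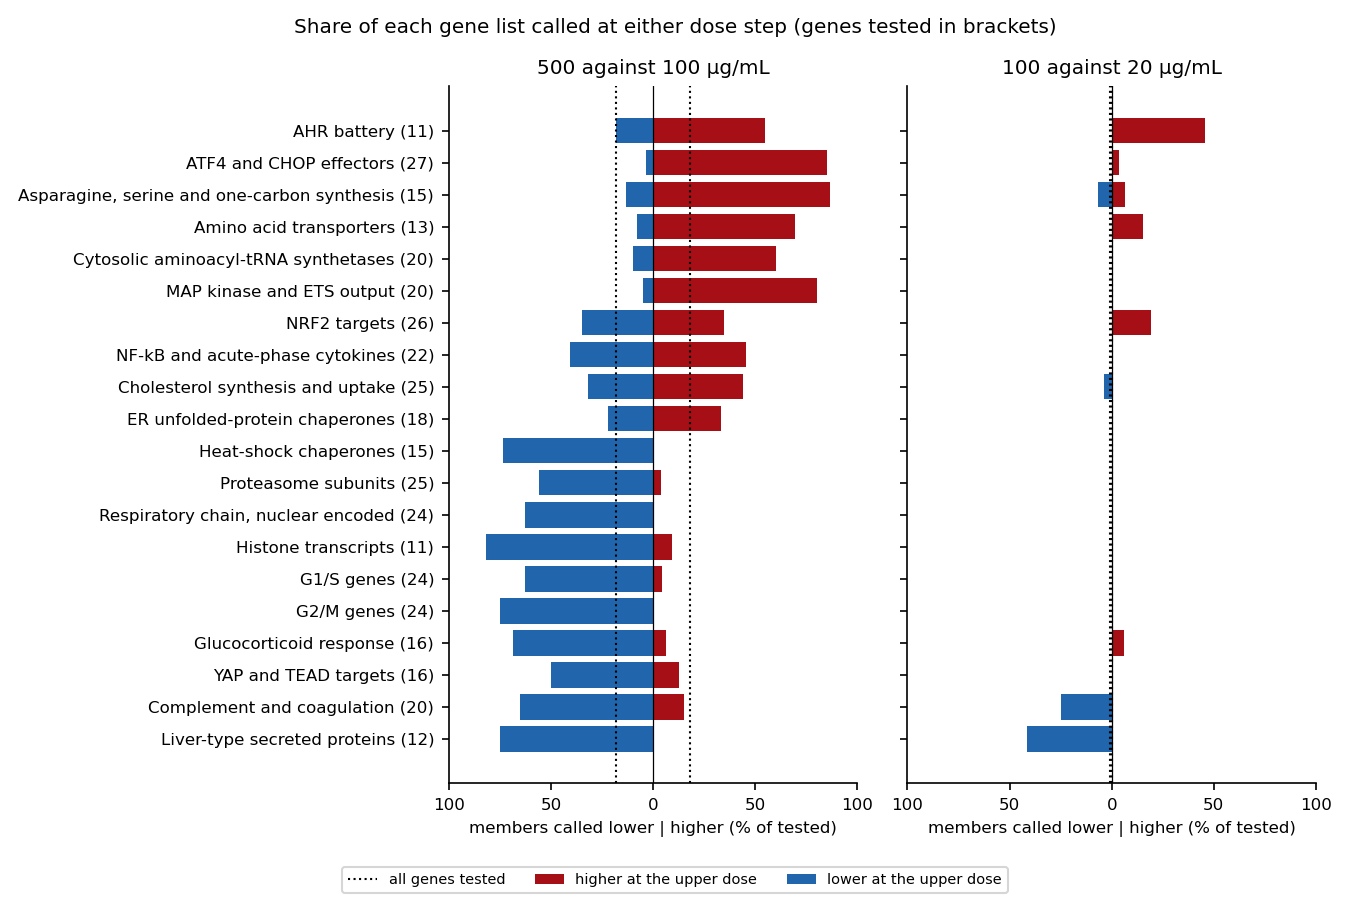
Percent of the tested members of 20 gene lists called higher (red, right of 0) or lower (blue, left of 0) at the upper dose of each step (x axis), for 500 against 100 µg/mL on the left and 100 against 20 µg/mL on the right. Dotted lines give the percent of all genes tested, 18 each way at the upper step, and numbers in brackets the members tested.

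ULBP1, a surface ligand that NK and T cells recognise through the receptor NKG2D, had the third largest rise among genes with at least 5 CPM at either dose. It had 7.39, 7.93 and 6.93 CPM at 500 µg/mL and 0.290, 0.709 and 0.447 CPM at 100 µg/mL (chromosome 6, 149964007 to 149973710), and rose by 3.92 ± 0.27 (edgeR adjusted p = 2.8e-16). All 3 libraries at 100 µg/mL were under 1 CPM, and the difference between the steps was 3.23 (edgeR adjusted p = 0.000109). Of 7 NKG2D ligands tested, 5 rose and none fell, against 18% of all genes each way, with a median of 0.36. MICA rose by 0.36 ± 0.08 with overlapping groups, 17.97, 15.0 and 17.2 CPM at 500 µg/mL and 15.6, 11.0 and 12.8 CPM at 100 µg/mL, and MICB by 0.32 ± 0.09. For ligands other than ULBP1 the difference between the steps did not pass.

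Most listed targets of the MAP kinase pathway, among them ETS factors and phosphatases that brake the kinases, rose at the upper step. Of 20 tested, 16 rose and 1 fell, where 18% of all genes moved each way, with a median of 0.62. At the lower step 0 were called, with a median of -0.050. The difference between the steps was positive for 15, against 7.44% of all genes. ETV4, an ETS transcription factor, had 56.5, 53.7 and 50.4 CPM at 500 µg/mL and 20.4, 18.9 and 17.6 CPM at 100 µg/mL and rose by 1.497 ± 0.07 (edgeR adjusted p = 2.97e-23). The related ETV5 had 43.4, 45.6 and 46.9 CPM at 500 µg/mL and 19.2, 20.6 and 19.4 CPM at 100 µg/mL and rose by 1.197 ± 0.06. In both the groups were well apart. PHLDA1 rose by 1.22 ± 0.06, and the ERK phosphatases DUSP5 and DUSP6 by 1.34 ± 0.08 and 0.82 ± 0.09. The early response factor EGR1 rose by 1.74 ± 0.18 and FOSL1, a subunit of AP-1, by 1.32 ± 0.14. FOS itself did not pass (-0.11 ± 0.11, edgeR adjusted p = 0.503), and CCND1, the cyclin of early G1, fell by 0.30 ± 0.05. IL11 and SPRY2 also did not pass. DUSP1, a MAP kinase phosphatase outside this list, fell at the upper step.

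EGF receptor ligands rose with them, 4 of 8 genes of the ligand list with none falling, against 18% of all genes each way. EREG had 89.8, 95.7 and 86.8 CPM at 500 µg/mL and 24.2, 27.8 and 26.7 CPM at 100 µg/mL and rose by 1.79 ± 0.06 (edgeR adjusted p = 4.22e-28), after a smaller rise of 0.34 ± 0.06 at the lower step. AREG had 30.7, 28.1 and 26.4 CPM at 500 µg/mL and 8.86, 7.36 and 7.77 CPM at 100 µg/mL and rose by 1.83 ± 0.10. TGFA rose by 0.78 ± 0.10 and HBEGF by 1.34 ± 0.27, the last from under 1 CPM in each 100 µg/mL library. EGFR, their receptor, did not pass (0.05 ± 0.05, edgeR adjusted p = 0.494). The difference between the steps passed for the 4 ligands, and for 2 of them in a fit of only the compared groups or without the 100 µg/mL replicate 3.

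Hypoxia and glycolysis genes moved both ways. Of 22, 8 rose and 7 fell, against 18% of all genes each way, with a median of 0.018. VEGFA, the vascular growth factor, had 83.5, 84.5 and 86.6 CPM at 500 µg/mL and 32.9, 34.2 and 35.9 CPM at 100 µg/mL and rose by 1.31 ± 0.05 (edgeR adjusted p = 1.74e-25). The glycolytic isoenzymes ENO2 and ALDOC rose by 1.13 ± 0.10 and 0.90 ± 0.10, and the collagen hydroxylase P4HA1 by 0.56 ± 0.06. LDHA, which makes lactate, fell by 0.43 ± 0.05, and CA9, the carbonic anhydrase that marks hypoxia, fell by 0.29 ± 0.05.

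NRF2 targets also split, in a line where NRF2 is active without treatment. Of 26, 9 rose and 9 fell at the upper step, against 18% of all genes each way, with a median of -0.049. At the lower step 5 rose, against 0.18% of all genes, and none fell. There the calls of GCLC, GCLM, SLC7A11 and SRXN1 were lost in a fit of only the compared groups. HMOX1, heme oxygenase, had 123, 100.2 and 94.9 CPM at 500 µg/mL and 47.9, 38.4 and 39.6 CPM at 100 µg/mL and rose by 1.34 ± 0.08 (edgeR adjusted p = 4.86e-19), against 0.03 ± 0.08 at the lower step and 52.6 CPM in the vehicle. Replicate 1 was the highest at both doses, and the groups did not overlap. GCLC, the catalytic subunit of the first enzyme of glutathione synthesis, had 172, 169 and 169 CPM at 500 µg/mL and 239.6, 244 and 241 CPM at 100 µg/mL. It fell by 0.51 ± 0.04 at the upper step after a rise of 0.20 ± 0.04 at the lower (difference -0.71, edgeR adjusted p = 7.44e-11), while its partner subunit GCLM rose at both steps, by 0.38 ± 0.04 and 0.22 ± 0.04. GPX2, a glutathione peroxidase, had 119.7, 97.5 and 95.1 CPM at 500 µg/mL and 260.2, 166 and 234 CPM at 100 µg/mL and fell by 1.08 ± 0.11 (edgeR adjusted p = 1.53e-11). The antioxidant reductase TXNRD1 (0.09 ± 0.06, edgeR adjusted p = 0.214) did not pass. HMOX1 and SLC7A11 are also known to answer to ATF4.

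Of 22 autophagy and lysosome genes, 8 rose and 4 fell, with a median of 0.039 and 0 called at the lower step. The share that fell was that of all genes (18%), and it was 2 genes in a fit of only the compared groups. SQSTM1, the autophagy receptor p62 that NRF2 also induces, had 1168, 1034 and 1022 CPM at 500 µg/mL and 623, 556 and 514 CPM at 100 µg/mL and rose by 0.93 ± 0.06 (edgeR adjusted p = 3.01e-16). CTSL, a lysosomal protease, rose by 0.86 ± 0.05, and MAP1LC3B, a protein of the autophagosome membrane, by 0.47 ± 0.05. TFEB, the factor that drives lysosomal genes, had 6.82, 7.19 and 6.67 CPM at 500 µg/mL and 14.2, 14.1 and 11.4 CPM at 100 µg/mL and fell by 0.94 ± 0.09 (edgeR adjusted p = 1.61e-12).

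Chaperones of the endoplasmic reticulum, the targets of the unfolded protein response, changed by small amounts. Of 18, 6 rose and 4 fell, against 18% of all genes each way, with a median of 0.080 and 0 called at the lower step. HSPA5, the chaperone BiP, had 614, 586 and 619 CPM at 500 µg/mL and 478, 486 and 499 CPM at 100 µg/mL and rose by 0.31 ± 0.04. HYOU1 and HERPUD1, a chaperone and a degradation factor of the same compartment, rose by 0.34 ± 0.04 and 0.38 ± 0.05, and CRELD2 fell by 0.36 ± 0.07. Of 15 cytosolic and mitochondrial heat-shock chaperones, 0 rose and 11 fell, against the same shares of all genes. Their median was -0.21, with 0 called at the lower step. DNAJB4, a co-chaperone, had 27.4, 27.3 and 29.1 CPM at 500 µg/mL and 43.2, 45.0 and 47.0 CPM at 100 µg/mL and fell by 0.69 ± 0.06 (edgeR adjusted p = 3.32e-14). DNAJA1 fell by 0.50 ± 0.05, HSPA1A by 0.48 ± 0.06 and HSP90AA1 by 0.28 ± 0.04. HSPA1A shares near-identical sequence with HSPA1B, and the counting can divide reads between them. Of 25 proteasome subunits, 14 fell and 1 rose, against the same shares of all genes, with a median of -0.15. The falls were led by PSMD1 (fell by 0.45 ± 0.05) and PSMD2 (fell by 0.42 ± 0.05) of the regulatory particle. Without the 100 µg/mL replicate 3, 9 fell.

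Lipid genes gave mixed directions at the upper step, where 18% of all genes moved each way. Of 25 genes of cholesterol synthesis and uptake, 11 rose and 8 fell, with a median of 0.028, and 5 fell in a fit of only the compared groups. The lower step had 1 fall, against 0.608% of all genes. INSIG1, which holds back the sterol factor SREBP, rose by 0.67 ± 0.04, to 84.9, 80.7 and 78.9 CPM at 500 µg/mL, against 50.9, 52.5 and 50.3 CPM at 100 µg/mL. The synthesis enzyme HMGCS1 had 124, 116 and 116 CPM at 500 µg/mL and 169.9, 185 and 179.6 CPM at 100 µg/mL and fell by 0.59 ± 0.05 (edgeR adjusted p = 8.69e-13). Of 12 fatty acid synthesis genes, 4 rose and 5 fell, with SREBF1, the SREBP factor of this pathway, higher by 0.46 ± 0.06, the desaturase SCD higher by 0.36 ± 0.04, and FASN, the synthase, which fell by 0.41 ± 0.06. The 5 that fell were 3 without the 500 µg/mL replicate 1 or 2, and without the 100 µg/mL replicate 2 or 3. Of 9 LXR targets, 5 rose and 1 fell, with APOE, a lipoprotein component, higher by 0.60 ± 0.08 and ABCA1, the cholesterol exporter, which fell by 0.34 ± 0.09. The 5 that rose were 3 without the 500 µg/mL replicate 1 or the 100 µg/mL replicate 2. Of 14 PPAR and fatty acid oxidation genes, 4 rose and 7 fell, the last count being 4 without the 500 µg/mL replicate 1 and in a fit of only the compared groups. PLIN2, the coat protein of lipid droplets, had 156, 139.8 and 138 CPM at 500 µg/mL and 52.4, 55.6 and 56.9 CPM at 100 µg/mL and rose by 1.39 ± 0.06 (edgeR adjusted p = 2.18e-24).

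**Figure D4:**
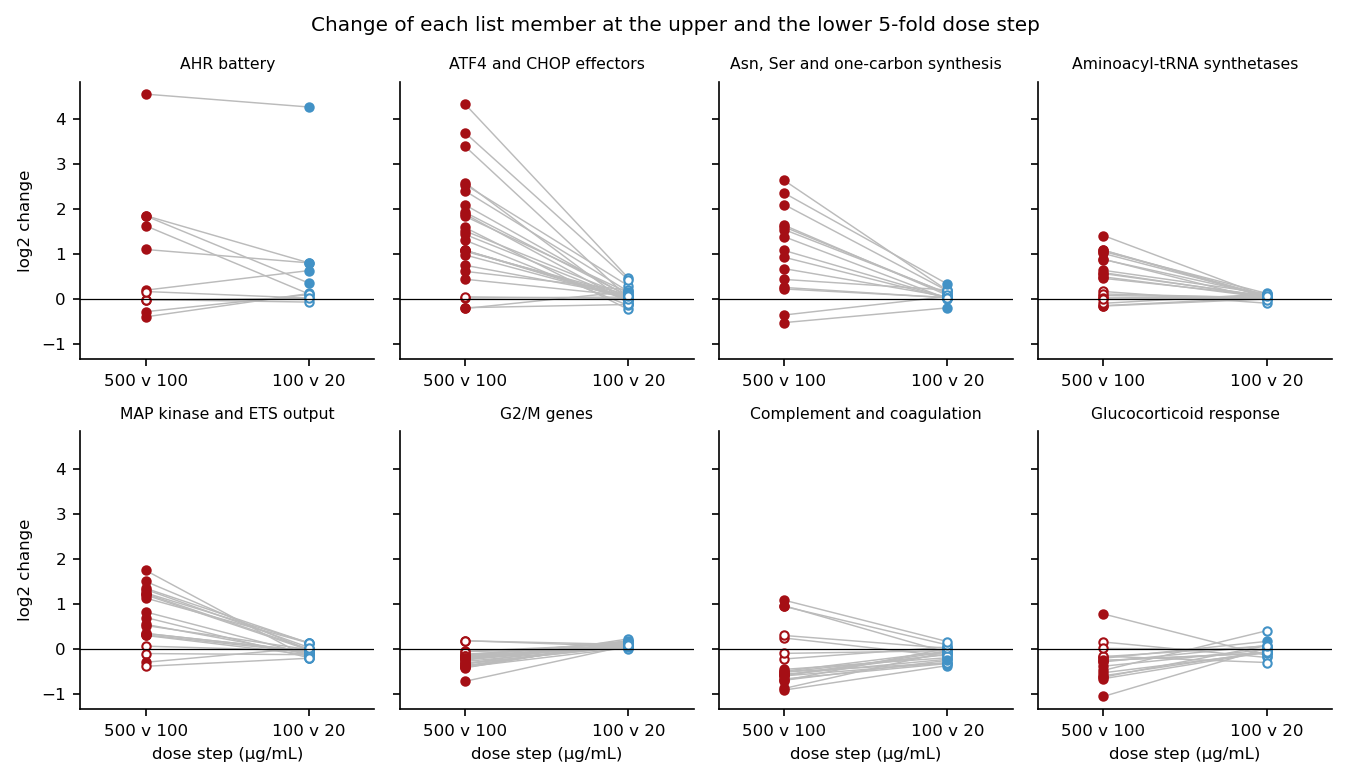
Log2 change (y axis) of each tested member of 8 gene lists, without FGF21, at the upper step of 500 against 100 µg/mL (left of each panel) and at the lower step of 100 against 20 µg/mL (right), joined by a line. Filled points have an adjusted p under 0.05. CYP1A1 stands above 4 at both steps, while the ATF4 and synthesis members above 1 at the upper step lie under 0.5 at the lower.

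Genes of the cell cycle were lower at 500 µg/mL by modest amounts. Of 24 G2/M genes, 0 rose and 18 fell, against 18% of all genes each way, with a median of -0.22. At the lower step 0 were called, and the median was 0.089. KIF20A, a kinesin of cell division, had 38.2, 33.3 and 34.2 CPM at 500 µg/mL and 62.7, 53.5 and 58.6 CPM at 100 µg/mL and fell by 0.72 ± 0.06 (edgeR adjusted p = 7.5e-13). The groups did not overlap. CCNA2, a cyclin, fell by 0.41 ± 0.04, the kinase AURKA by 0.40 ± 0.05 and the centromere protein CENPF by 0.38 ± 0.05. MKI67, the proliferation marker Ki-67, had 355, 319 and 282 CPM at 500 µg/mL and 427, 371 and 405 CPM at 100 µg/mL and fell by 0.33 ± 0.09 (edgeR adjusted p = 0.00325), with no call in the difference between the steps (edgeR adjusted p = 0.0846, or 0.045 with the replicate block). The difference was negative for 17 G2/M genes, against 8.61% of all genes. It was negative for 11 without the 100 µg/mL replicate 1 or without replicate 3, and for 8 in a fit of only the compared groups.

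Of 24 G1/S genes, 15 fell and 1 rose, against 18% of all genes each way, with a median of -0.18. RRM2, a subunit of the enzyme that makes deoxynucleotides, had 144, 141 and 134 CPM at 500 µg/mL and 205, 196 and 192 CPM at 100 µg/mL and fell by 0.50 ± 0.04 (edgeR adjusted p = 2.21e-14). The replication helicase subunits MCM4 and MCM7 fell by 0.42 ± 0.04 and 0.32 ± 0.04, and the flap nuclease FEN1 by 0.40 ± 0.06. CDC6, a loader of that helicase, was the 1 that rose (0.13 ± 0.05), and its call was lost under other settings. Of 11 histone transcripts tested, 9 fell and 1 rose, against the same shares of all genes, with a median of -0.62. The difference between the steps was negative for 2 and positive for 1. The summed level over the 11 tested overlapped, at 182 to 186 CPM at 500 µg/mL and 172 to 198 CPM at 100 µg/mL. H2AC6 had 6.74 ± 0.436 CPM at 500 µg/mL and 11.8 ± 0.645 CPM at 100 µg/mL (SD, n = 3 each), with no overlap, and fell by 0.81 ± 0.08. Histone copies are close in sequence, and most replication histones lack the poly(A) tail that messenger RNA selection uses. In bulk libraries fewer cells of a type or phase and less RNA per cell cannot be told apart.

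CDKN1C, the cell-cycle inhibitor p57, was among the 10 largest falls, with 3.56, 3.18 and 2.76 CPM at 500 µg/mL and 12.9, 13.4 and 11.9 CPM at 100 µg/mL, a fall of 2.01 ± 0.13 (edgeR adjusted p = 4.35e-17) against a lower step of 0.15 ± 0.11. CDKN1A, the inhibitor p21, had 249.7, 236 and 233 CPM at 500 µg/mL and 146, 139 and 130.3 CPM at 100 µg/mL and rose by 0.79 ± 0.05 (edgeR adjusted p = 1.72e-18). CDKN1A and CDKN1C, both inhibitors, thus moved in opposite directions.

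Of 24 respiratory chain genes encoded in the nucleus, 15 fell and 0 rose, against 18% of all genes each way, with a median of -0.17. ATP5F1A, of the ATP synthase, fell by 0.43 ± 0.06, and SDHA, of complex II, by 0.34 ± 0.05. Of 13 genes encoded in the mitochondrial genome none was called at the upper step, with a median of 0.14. Of 26 cytosolic ribosomal proteins, 10 rose and none fell, against the same shares of all genes, with a median of 0.14. The count that rose was 0 in a fit of only the compared groups and 1 without the 100 µg/mL replicate 2. It was 4 and 2 without the 500 µg/mL replicates 1 and 3.

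Secreted proteins of the liver type, which A549 cells are known to make, fell over both steps. Of 12 tested, 9 fell and none rose at the upper step, against 18% of all genes each way, with a median of -0.82. At the lower step 5 fell, against 0.608% of all genes, with a median of -0.35. KNG1, the precursor of bradykinin, had 3.21 ± 0.224 CPM at 500 µg/mL and 11.97 ± 0.764 CPM at 100 µg/mL (SD, n = 3 each), with no overlap, and fell by 1.89 ± 0.13 (edgeR adjusted p = 1.06e-16), after a fall of 0.50 ± 0.10 at the lower step. APOB, the protein of low-density lipoprotein, fell by 1.73 ± 0.15 and 0.69 ± 0.11, and TF, the iron carrier transferrin, by 1.245 ± 0.13 and 0.48 ± 0.11. HP, haptoglobin, fell by 1.57 ± 0.17 at the upper step, to 1.29, 0.741 and 0.969 CPM at 500 µg/mL, against 2.90, 2.44 and 3.66 CPM at 100 µg/mL.

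Of 20 complement and coagulation genes, 13 fell and 3 rose, against 18% of all genes each way, with a median of -0.52. At the lower step 5 fell, against 0.608% of all genes. FGB, a chain of fibrinogen (chromosome 4, 154562956 to 154571086), had 370.3, 356 and 359 CPM at 500 µg/mL and 681, 659 and 710.5 CPM at 100 µg/mL and fell by 0.92 ± 0.04 (edgeR adjusted p = 6.6e-23), after a fall of 0.37 ± 0.04 at the lower step. The doses were ordered without overlap, since 20 µg/mL gave 877, 860.2 and 920.2 CPM. FGA, another chain, fell by 0.67 ± 0.04 and 0.33 ± 0.04, and the complement protease C1S by 0.71 ± 0.05 at the upper step alone by call (difference -0.72, edgeR adjusted p = 8.22e-08). Among the members that rose were the plasminogen activator PLAT (0.94 ± 0.25) and the complement inhibitor CD55 (0.96 ± 0.08).

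Genes of the glucocorticoid response fell at the upper step. The glucocorticoid receptor is a hormone-activated transcription factor, and glycyrrhetinic acid from licorice is known to block the kidney enzyme that inactivates cortisol. Of 16 tested, 11 fell and 1 rose, where 18% of all genes moved each way, with a median of -0.28. At the lower step 1 rose, against 0.18% of all genes, with a median of -0.040. SGK1, a kinase of salt transport (chromosome 6, 134169246 to 134318112), had 68.5, 69.0 and 70.0 CPM at 500 µg/mL and 142, 137 and 154 CPM at 100 µg/mL and fell by 1.06 ± 0.04 (edgeR adjusted p = 8.06e-24). Means were 143 CPM in the vehicle, 143 CPM at 20 µg/mL and 144 CPM at 100 µg/mL, so the level dropped at the top dose. FKBP5, a co-chaperone of the receptor, had 613, 632 and 615 CPM at 500 µg/mL and 947, 944 and 990.0 CPM at 100 µg/mL and fell by 0.63 ± 0.03 (edgeR adjusted p = 1.19e-20). DUSP1, a phosphatase of MAP kinases, fell by 0.53 ± 0.04 and PER1, a clock gene that the receptor induces, by 0.60 ± 0.06. MT2A, a metallothionein that metals and stress also induce, was the 1 that rose (0.77 ± 0.19). The receptor gene NR3C1 fell by 0.29 ± 0.04. Of 15 clock genes, 4 rose (2 without the 500 µg/mL replicate 1) and 4 fell, against 18% of all genes each way, and PER2 had 43.9, 40.9 and 39.9 CPM at 500 µg/mL and 83.5, 86.7 and 83.7 CPM at 100 µg/mL, a fall of 1.03 ± 0.05, while NR1D2 rose by 1.22 ± 0.10 and BHLHE40 by 0.64 ± 0.06.

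NF-kB and acute-phase genes split, 10 up and 9 down of 22, against 18% of all genes each way, with 0 called at the lower step. CXCL8, the neutrophil chemokine, had 2.54, 2.88 and 2.53 CPM at 500 µg/mL and 1.28, 1.38 and 1.59 CPM at 100 µg/mL and rose by 0.90 ± 0.15 (edgeR adjusted p = 4.39e-06). IL1B and IL1A, interleukin-1 cytokines, rose by 1.93 ± 0.33 and 3.05 ± 0.52 from under 0.5 CPM in every 100 µg/mL library, so few counts stand behind them. NFKB2, a subunit of NF-kB, rose by 0.41 ± 0.06, and among members that fell were CCL2, a monocyte chemokine, by 0.63 ± 0.19, and SAA1, an acute-phase protein, by 0.39 ± 0.07. Of 18 interferon response genes, 5 rose and 3 fell, near the 18% of all genes each way, and 3 rose without the 500 µg/mL replicate 3 or without the 100 µg/mL replicate 3.

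The lineage and adhesion lists held members of both directions, where 18% of all genes moved each way. Of 9 alveolar and mucin genes tested, 4 rose and 3 fell. SFTPD, surfactant protein D, had 1.78, 2.27 and 2.16 CPM at 500 µg/mL and 7.37, 7.05 and 6.71 CPM at 100 µg/mL and fell by 1.77 ± 0.12, while LAMP3, a lysosomal membrane protein of type II cells, rose by 2.18 ± 0.22, the lipid transporter ABCA3 by 0.48 ± 0.06 and the mucin MUC5AC by 1.22 ± 0.16. Of 19 genes of epithelial-mesenchymal transition and TGF-beta response, 9 rose and 5 fell, with TGFB1 higher by 0.79 ± 0.08, the collagen chain COL4A2 higher by 0.52 ± 0.06, and CDH1, E-cadherin, which fell by 0.37 ± 0.04. Of 16 YAP and TEAD targets, 2 rose and 8 fell, among them NUAK2 (fell by 0.59 ± 0.07), CRIM1 (fell by 0.41 ± 0.05) and TEAD1 (fell by 0.35 ± 0.04), against the receptor kinase AXL, which rose by 0.58 ± 0.06. Of 14 tight junction genes, 4 rose and 4 fell (2 without the 100 µg/mL replicate 2), with occludin (OCLN) higher by 0.94 ± 0.11 and CLDN1 by 0.50 ± 0.06, while CGN fell by 0.78 ± 0.08 and the pore-forming CLDN2, at 0.720, 0.305 and 0.224 CPM at 500 µg/mL and 3.39, 1.34 and 2.81 CPM at 100 µg/mL, fell by 2.56 ± 0.35. Of 12 ID and BMP feedback genes, 2 rose and 5 fell. ID2 and ID3, inhibitors of differentiation factors, fell by 0.80 ± 0.10 and 0.56 ± 0.07, and ID1 did not pass (-0.07 ± 0.05, edgeR adjusted p = 0.316). Of 5 PXR and CAR targets tested, 1 rose and 2 fell.

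The remaining genes of largest change stood outside these lists. AKNA, an AT-hook protein, had 21.8, 18.3 and 17.5 CPM at 500 µg/mL and 3.48, 3.54 and 3.33 CPM at 100 µg/mL and rose by 2.47 ± 0.09 (edgeR adjusted p = 2.81e-25). LEFTY1, a secreted antagonist of Nodal, had 2.24, 2.22 and 1.68 CPM at 500 µg/mL and 11.4, 13.2 and 11.6 CPM at 100 µg/mL, the largest fall at 2.56 ± 0.17 (edgeR adjusted p = 8.08e-17) among genes with at least 5 CPM at either dose. It had already fallen by 0.77 ± 0.12 at the lower step, and the difference of -1.79 passed. MAPK4, an atypical MAP kinase, PGC, a pepsinogen, and ADRA2A, an adrenergic receptor, followed the same course, with falls of 2.45 ± 0.13, 2.23 ± 0.12 and 2.11 ± 0.12 at the upper step and 0.63 ± 0.09, 0.80 ± 0.09 and 0.40 ± 0.09 at the lower. CPLX2, complexin, a regulator of vesicle fusion, had 51.2, 47.5 and 50.2 CPM at 500 µg/mL and 221, 211 and 202 CPM at 100 µg/mL and fell by 2.09 ± 0.04 (edgeR adjusted p = 2.71e-35). STAC2 and PDZK1, a scaffold protein, fell by 2.14 ± 0.15 and 1.81 ± 0.12 with no call at the lower step, and ETNK2, an ethanolamine kinase, had 31.3, 28.9 and 27.5 CPM at 500 µg/mL and 108, 99.6 and 97.7 CPM at 100 µg/mL and fell by 1.80 ± 0.05 (edgeR adjusted p = 2.16e-29).

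The steps were counted against each other over the 17765 genes tested, at 5 CPM or more in either group and without clone, LOC or ID-only names. Of these, 1120 rose at the upper step, were not called at the lower and were steeper at the upper by the test of the difference. In the same way 1277 fell. These counts rest on the difference between the steps, which was called for 2852 genes and for 1545 in a fit of only the compared groups. Turns between the steps were few, with 9 of the 17765 genes that fell and then rose and 7 that rose and then fell. Both steps share the 100 µg/mL libraries, so spread in those libraries moves the steps in opposite directions. A turn with dose and such spread cannot be told apart here. SMOX, which oxidises the polyamine spermine, had 271, 273 and 259 CPM at 500 µg/mL and 151, 127 and 129 CPM at 100 µg/mL. It rose by 0.98 ± 0.05 after a fall of 0.24 ± 0.05 at the lower step, and the vehicle averaged 219 CPM. NID2, a basement membrane protein, SLC16A4, NAV2 and PITPNC1 turned the same way, with rises of 0.77 ± 0.17, 0.58 ± 0.06, 0.39 ± 0.05 and 0.27 ± 0.05 after falls of 0.77 ± 0.17, 0.25 ± 0.06, 0.29 ± 0.05 and 0.22 ± 0.05. BEST2, a chloride channel, had 5.27, 5.36 and 5.03 CPM at 500 µg/mL and 22.9, 21.5 and 21.8 CPM at 100 µg/mL, and fell by 2.08 ± 0.07 after a rise of 0.31 ± 0.06. CYP4F3, a leukotriene hydroxylase, PBK, a mitotic kinase, and DLGAP5, a spindle protein, fell by 0.41 ± 0.05, 0.57 ± 0.06 and 0.43 ± 0.05 after rises of 0.38 ± 0.05, 0.23 ± 0.06 and 0.22 ± 0.05, with GCLC as the remaining example. The lower-step calls of these 10 genes were all lost in a fit of only the compared groups, at edgeR adjusted p from 0.117 to 1.

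The same dose step was compared between licorice and Ginseng, as the change with licorice minus the change with Ginseng in 1 model. The difference was called for 3766 genes (21.2%), more positive with licorice for 1737 (9.78%) and more negative for 2029 (11.4%). CYP1A1 changed by 4.55 with licorice and -0.19 ± 0.54 with Ginseng, where it had 0.169, 0.183 and 0.359 CPM at 500 µg/mL and 0.383, 0.196 and 0.212 CPM at 100 µg/mL, and the difference was 4.75 ± 0.63 (edgeR adjusted p = 1.11e-07). ASNS changed by 2.63 with licorice and 0.22 ± 0.05 with Ginseng, a difference of 2.41 ± 0.07 (edgeR adjusted p = 8.17e-29), and SGK1 by -1.06 with licorice and -0.07 ± 0.04 with Ginseng, a difference of -0.99 ± 0.06 (edgeR adjusted p = 6.2e-17). By list, the difference was positive for 22 of 27 ATF4 and CHOP effectors, 15 of 20 MAP kinase genes and 12 of 20 tRNA synthetases, and negative for 17 of 24 G2/M genes and 11 of 20 complement and coagulation genes. Of the 20 genes fixed with earlier results of these data known, the difference was called for 19, and ID1 was the exception (edgeR adjusted p = 0.329). That count is therefore not an independent test.

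**Figure D5:**
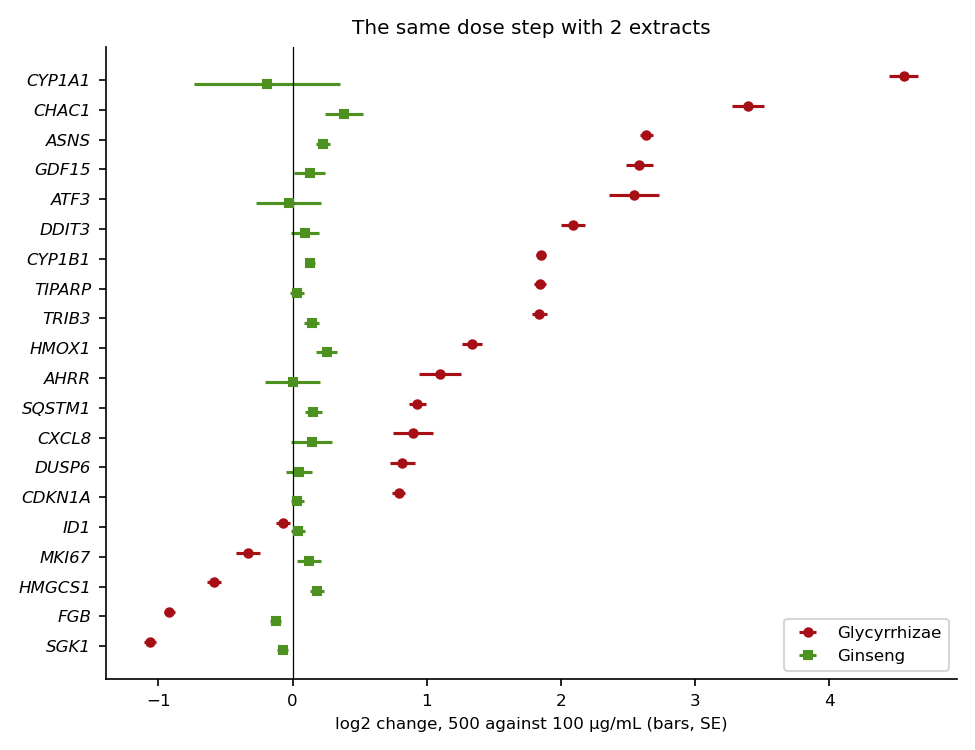
Log2 change of 500 against 100 µg/mL (x axis, bars give the SE) for 20 fixed genes (y axis) with Glycyrrhizae, the licorice extract (red circles), and with Ginseng (green squares). The Glycyrrhizae values run from -1.06 for SGK1 to 4.55 for CYP1A1, while the Ginseng values lie between -0.19 and 0.38.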

How the data were processed

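The authors deposited RSEM expected counts per gene, and the submitters' processing notes name FastQC 0.11.9, Trim Galore 0.6.5, STAR 2.7.3a, RSEM 1.3.3 and the hg38 (GRCh38) build. Neither the gene annotation's release nor whether counting used strand is given in the sources used, so reads of overlapping or antisense genes may be shared. Of the table's 270 value columns, 60 matched the samples and 210 were not used. The expected counts were rounded to whole numbers before testing (76.0% were whole within 1e-09). Of 60675 gene IDs, 57055 took a symbol from the reference table, and coordinates came from GENCODE 29.

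In R 4.3.3, edgeR 4.0.16 fitted 1 mean per group over all 60 libraries, with filterByExpr, TMM scaling and 35 residual degrees of freedom. The factors of the 6 libraries ran from 0.951 to 1.08, and the common biological coefficient of variation was 5.59%. Contrasts gave the upper step, the lower step, their difference and the difference from Ginseng. Counts were simulated for all 60 libraries around 1 shared mean per gene, with changes set in the 3 libraries at 500 µg/mL. With 17238 genes tested, this fit of all 60 libraries recovered 29, 41, 48 and 50 of 50 genes changed by 1.25-, 1.5-, 2- and 4-fold. It called 7 of 17038 unchanged genes. The simulated libraries were independent draws without pairing by replicate number, so these calls do not give the error rate in the real libraries.

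The members and gene lists were chosen with earlier results of these data known. Named genes were the 10 largest rises and falls at 5 CPM or more, up to 4 members of each list by smallest adjusted p, 20 fixed genes, the 5 largest rises and falls specific to the upper step by test, and 5 genes turning each way between steps. Some genes that this rule names are not reported here. Other genes named beside these, members that went against their list among them, were chosen after their values were seen. Same-numbered libraries at 500 and 100 µg/mL deviated together (correlations of their deviations from the group means 0.49, 0.265 and 0.21). Other pairs ran from -0.329 to 0.13. Between 100 and 20 µg/mL the same-numbered values were 0.504, 0.631 and 0.219, but replicate 1 with replicate 3 gave 0.364. The numbers may thus pair the libraries. The main fit left this pairing out, and a fit with the replicate number as a block was an alternative. The other alternatives were RLE scaling, no filter on low counts, DESeq2 1.42.0, a fit of only the compared groups, and leaving out each library.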

Additional observations from a re-analysis of the deposited data

Results flagged for a closer look

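The change of 500 against 100 µg/mL differed between the licorice and the Ginseng extract for 3766 genes by the interaction in the edgeR fit at an adjusted p under 0.05. The values below are log2 changes with licorice minus log2 changes with Ginseng, and all were flagged by that test of the difference. Among AHR targets the difference was 4.75 for CYP1A1, 1.72 for CYP1B1, 1.81 for TIPARP and 1.10 for AHRR. Among stress genes it was 3.01 for CHAC1, 2.57 for ATF3, 2.46 for GDF15, 2.41 for ASNS, 2.00 for DDIT3 and 1.70 for TRIB3. It was 1.08 for HMOX1, 0.78 for SQSTM1, 0.77 for DUSP6 and 0.76 for CDKN1A. It was also 0.76 for CXCL8, whose call was lost in 3 of the alternative settings, at edgeR adjusted p from 0.0558 to 0.134. The difference was negative for SGK1 at -0.99, FGB at -0.79, HMGCS1 at -0.77 and MKI67 at -0.46.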

How the results depend on the processing

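The upper step called 6400 genes, and 6405 with RLE scaling, 5929 without the filter, 5771 by DESeq2, 4810 in a fit of only the compared groups and 5432 to 6328 without 1 library. The lower step was less stable. It called 140 genes, 8 in a fit of only the compared groups and 67 to 140 without 1 library. The difference between the steps was called for 2852 genes, 1545 in a fit of only the compared groups and 1851 to 3142 without 1 library. The replicate block gave 6903 genes at the upper step, 209 at the lower and 3363 in the difference, none of which moved by over 1.5 times. Among named genes it added upper-step calls for FARSA and FARSB (edgeR adjusted p = 0.0258 and 0.031). It added calls in the difference between the steps for MKI67, RARS1, RPL8, RPL11, RPS2 and SESN1 (edgeR adjusted p from 0.02 to 0.045). Lower-step calls were added for ASNS, PHGDH, SCD and MTHFD1L (edgeR adjusted p from 0.0254 to 0.0423). Calls in the difference from Ginseng were added for RPL8, RPL11 and SRXN1 (edgeR adjusted p from 0.0429 to 0.0492). Under 20 settings, 5003 of 5142 values for single genes kept their direction and their side of the threshold, 129 lost a call, 1 gained one and 9 reversed, and 1029 of 1093 counts over gene lists stayed within 1.5 times. The reversed values came from genes not called with all libraries, as the ranges without 1 library show: -0.0850 to 0.0246 for AHR, -0.376 to 0.0325 for ATF5, -0.0919 to 0.106 for CEBPB, -0.146 to 0.173 for CTH and -0.0681 to 0.0427 for SLC38A2. Calls of ALDH3A1, CDC6, HARS1, RPL8, RPL11, RPL18, RPS2, SESN1 and SRXN1 at the upper step were lost under at least 1 setting. The cause was not tested, beyond the fewer libraries that the smaller fits hold. Genes near 1 CPM at 100 µg/mL, such as ADM2 and ULBP1, rest on few counts there, which limits the precision of their folds.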
